A study of Mus musculus with 2 samples.

Results

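Distal-type colonocytes were chosen by measured RNA counts, as the non-goblet epithelial cells of mouse colon whose summed counts for Hoxb13, Krt36, Sycn, Aqp4, Tgm3 and Slc6a14 outweighed those for the crypt genes Ascl2, Clca3b, Kcne3 and Aldh1b1. They numbered 118 of the 1139 barcodes past the limits on depth and mitochondrial RNA, 60 of 436 in the THC library and 58 of 703 in the vehicle library. The THC library came from the colon of wild-type C57BL/6 mice given THC (tetrahydrocannabinol, the psychoactive compound of cannabis) at 10 mg/kg. The vehicle library came from the colon of wild-type C57BL/6 mice given the carrier. The labels do not say how many mice each library pools. Both were treated with EDTA to loosen the epithelium, digested with collagenase D, DNAse and Dispase, and enriched for lamina propria on Percoll, so the epithelial cells are those that came through a preparation aimed at another layer. With 1 library per group there is no replicate check and no test, and every interval below covers counting error only.

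The colon changes along its length. Its distal end expresses the last genes of the Hox clusters, among them Hoxb13, and its proximal end uses a different set of enzymes and transporters. Surface cells absorb salt and water through a brush border, and crypt cells at the base divide and renew the sheet. Krt36 is a hair-type keratin, Aqp4 a water channel, Tgm3 a transglutaminase that cross-links proteins, Slc6a14 an amino acid transporter and Sycn (syncollin) a protein of secretory granules.

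The members were not 1 uniform group. Among them, 42 of 60 in the THC library and 43 of 58 in the vehicle library had a Hoxb13 UMI (a unique molecular identifier, which counts an RNA molecule), and the cells with and without it differed in the genes described below. Upstream DNA of 5 genes is shown to place the genes of each side: Krt36 and Tgm3, which chose the members, Adh1, which was high in members with Hoxb13, and Fabp2 and Cyp2c55, which were high in members without it. Each sequence is the 250 bases before the gene's RefSeq start on GRCm38.p6, read 5′ to 3′ on the gene's strand. Capitals mark matches on either strand to CAATAAA or TCGTAAA, core sequences bound by posterior HOX proteins in vitro.
Krt36 (chr11:100105627-100105876, minus strand): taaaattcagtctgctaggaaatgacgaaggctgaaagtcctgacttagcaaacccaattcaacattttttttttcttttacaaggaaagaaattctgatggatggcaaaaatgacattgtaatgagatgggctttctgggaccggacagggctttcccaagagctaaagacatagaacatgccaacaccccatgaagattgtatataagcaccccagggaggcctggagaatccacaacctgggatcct
Tgm3 (chr2:130012090-130012339, plus strand): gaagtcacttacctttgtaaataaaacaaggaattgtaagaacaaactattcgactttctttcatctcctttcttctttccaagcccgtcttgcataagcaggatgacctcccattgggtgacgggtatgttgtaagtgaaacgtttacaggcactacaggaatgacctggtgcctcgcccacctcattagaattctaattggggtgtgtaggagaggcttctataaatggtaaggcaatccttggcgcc
Adh1 (chr3:138277335-138277584, plus strand): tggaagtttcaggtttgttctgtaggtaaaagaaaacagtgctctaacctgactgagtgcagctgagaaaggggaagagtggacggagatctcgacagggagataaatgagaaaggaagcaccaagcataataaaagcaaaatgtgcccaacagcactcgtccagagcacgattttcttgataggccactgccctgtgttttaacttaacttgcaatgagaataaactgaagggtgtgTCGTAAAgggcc
Fabp2 (chr3:122894822-122895071, plus strand): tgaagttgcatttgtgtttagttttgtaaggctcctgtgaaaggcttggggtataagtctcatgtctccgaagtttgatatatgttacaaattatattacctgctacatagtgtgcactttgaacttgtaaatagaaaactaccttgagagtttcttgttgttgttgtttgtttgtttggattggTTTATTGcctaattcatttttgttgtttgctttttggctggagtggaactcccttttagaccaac
Cyp2c55 (chr19:39006769-39007018, plus strand): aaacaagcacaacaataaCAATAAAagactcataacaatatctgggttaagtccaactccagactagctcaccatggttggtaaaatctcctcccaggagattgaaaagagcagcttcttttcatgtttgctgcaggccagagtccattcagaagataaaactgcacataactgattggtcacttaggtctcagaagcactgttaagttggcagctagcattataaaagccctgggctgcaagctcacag

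Of the 7 windows searched, those of Krt36, Tgm3, Sycn and B3gnt7 held neither motif. CAATAAA stood in the windows of Fabp2 and Cyp2c55 and in 4.42% of the 27025 windows of the same length in the table, and TCGTAAA stood in the window of Adh1 and in 0.492% of all windows. The reverse complement of CAATAAA also matches the core that CDX proteins bind. A match is a run of letters and not a measured binding site.

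The 6 genes that chose the cells are described without a test, because their counts made the choice. Sycn gave the most molecules, with 2156 UMIs in 48 of 60 members of the THC library and 2091 UMIs in 48 of 58 of the vehicle library. Hoxb13, a transcription factor of the posterior body axis, gave 380 UMIs in 42 THC members and 367 UMIs in 43 vehicle members. Slc6a14 gave 307 UMIs in 40 THC members and 259 UMIs in 43 vehicle members. These 3 genes were thus found in at least 66.7% of the members of either library.

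The other 3 were found in fewer members. Aqp4 gave 286 UMIs in 38 THC members and 119 UMIs in 27 vehicle members. Krt36 gave 194 UMIs in 26 THC members and 283 UMIs in 29 vehicle members, so Aqp4 had more UMIs in the THC library and Krt36 more in the vehicle library. Tgm3 gave 425 UMIs in 22 THC members and 235 UMIs in 20 vehicle members. In cells with fibroblast genes, which should lack all 6, Hoxb13, Krt36, Sycn, Aqp4, Tgm3 and Slc6a14 were found in 0 of 141 cells of the THC library at a median depth of 8771 UMIs; in 185 such cells of the vehicle library, at a median of 7702 UMIs, Hoxb13 was found in 1, Tgm3 in 2 and the other 4 genes in 0.

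**Figure D1:**
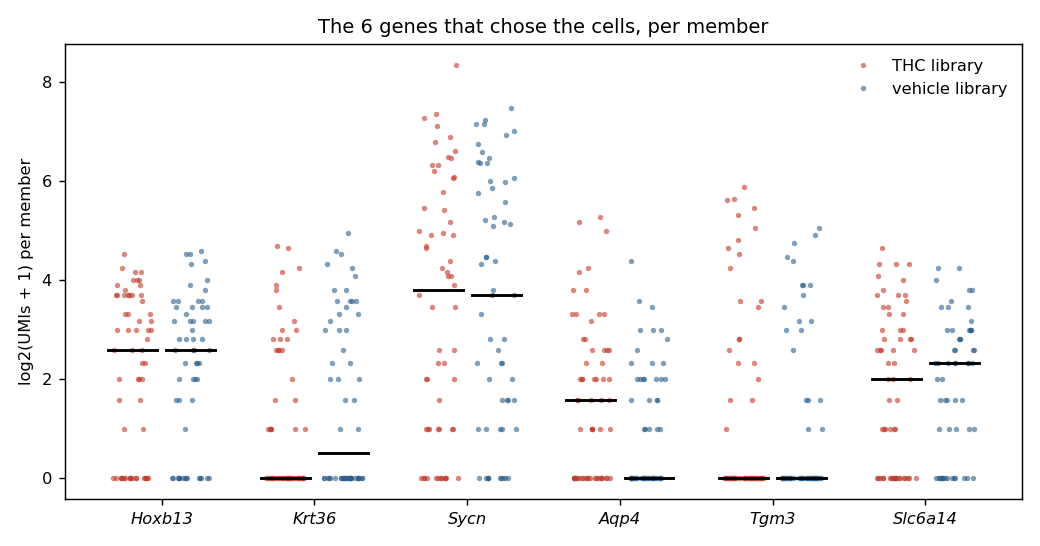
Points are single members, 60 in the THC library and 58 in the vehicle library, and the vertical axis is log2(UMIs + 1) for each of the 6 genes that chose them; black bars are medians. Sycn reached the highest counts and Krt36 and Tgm3 were found in 26 and 22 of the 60 THC members.

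The members rarely held all 6 genes. In both libraries together, 16 members had 1 of the 6, 16 had 2, 20 had 3, 24 had 4, 30 had 5 and 12 had all 6. Of the 16 with a single gene, 12 had Sycn. Sycn made up more than 50% of the sum of the 6 genes in 67 of the 118 members, and goblet-side cells held it too, in 36 of 49 cells of the THC library and 52 of 71 of the vehicle library. Since the sum of these genes chose the cells, their joint presence is a description: of the 55 members with Krt36, 51 had Hoxb13 and 42 had Aqp4, while of the 63 without Krt36, 34 had Hoxb13 and 23 had Aqp4.

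Most members lay clear of the rule's threshold. The 6 genes led the crypt genes by 10 UMIs or more in 46 THC members and 41 vehicle members, and by 1 UMI in 1 THC member and 4 vehicle members. Just outside, 1 cell in each library was tied, 1 in each was behind by 1 UMI, and 0 THC cells and 4 vehicle cells were ahead with a single UMI of the 6 genes.

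Members made up 51.3% of the 117 non-goblet epithelial cells of the THC library (exact binomial 95% interval 41.9 to 60.6) and 33.0% of the 176 of the vehicle library (26.1 to 40.4). The remainder was 43 crypt-side cells in the THC library and 80 in the vehicle library, in which the crypt genes led with 2 UMIs or more, and 14 THC cells and 38 vehicle cells on neither side. The cells on neither side had a median of 12528 UMIs in the THC library and 2166 in the vehicle library, so depth differed with the shares, and its part in them was not tested. Of members and crypt-side cells alone, members were 58.3% (48.1 to 67.9) in the THC library and 42.0% (33.7 to 50.7) in the vehicle library. Animals, digestion and the different cell calling of the 2 deposited matrices cannot be told apart from treatment in these shares.

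Members held a median of 18601 UMIs in the THC library and 15922 in the vehicle library, with 8.38% and 9.16% of them mitochondrial, and their summed depth was 1054408 and 932005 UMIs. Markers of T cells and tuft cells were at 0 UMIs in members of both libraries. Markers of B cells, macrophages and fibroblasts gave 6 UMIs at most each in a library. The 5 plasma cell markers gave 198 UMIs in THC members and 143 in vehicle members, spread over 52 and 48 cells with 13 and 10 in the highest. Nearly all were of 1 marker, Sdc1: without it the list gave 0 UMIs in THC members and 7 in vehicle members. Smooth muscle markers gave 1010 UMIs in the THC members, 989 of them in 1 cell, and 15 UMIs in the vehicle members. Enteroendocrine markers gave 575 UMIs in THC members, 570 of them in 2 cells, and 705 UMIs in vehicle members, 704 of them in 1 cell. Endothelial markers gave 50 UMIs in THC members, 40 of them in 1 cell, and 7 UMIs in vehicle members. These 4 THC members and 1 vehicle member are called members of mixed markers below, and the main values that rest on them are named. Goblet markers were more widely spread, with 1491 UMIs in THC members and 1353 in vehicle members, and 13 and 8 members held 20 or more.

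Hoxb13 divided the members into cells of unlike expression. The division was chosen after the values were seen, and it is given as a description without a test. Hoxb13 is also part of the sum that had to exceed the crypt genes. Members without it had to exceed them on the other distal genes alone, so position and maturity cannot be told apart in this division. Depth was similar on both sides: members with and without Hoxb13 had medians of 18370 and 20205 UMIs in the THC library and 15495 and 17978 UMIs in the vehicle library. Positive members held a median of 8.5 Hoxb13 UMIs in the THC library and 8.0 in the vehicle library, and the main ratios held among members of 10000 UMIs or more (Car1 below). The median mitochondrial share was 7.75% with and 9.87% without Hoxb13 in the THC library, and 8.86% and 9.47% in the vehicle library. The rule itself keeps Hoxb13 low outside the members among non-goblet cells. It was found in 2 of 43 crypt-side cells of the THC library and 9 of 80 of the vehicle library, and in 10 of 49 and 12 of 71 goblet-side cells.

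Of 2503 genes with at least 50 UMIs in the members of each library, 110 were at least 2-fold higher in members with Hoxb13 than without in both libraries (4.39%) and 100 at least 2-fold lower in both (4%). Among genes past the fold upward were genes of the rule, Hoxb13, Krt36, Sycn, Aqp4, Tgm3 and Kcne3, and for Hoxb13 the division itself fixed this. The median log2 ratio of all 2503 genes was 0.04 in the THC library and 0.12 in the vehicle library. Ratios are log2 of summed counts per 1000000 UMIs (CPM), and a gene with 0 UMIs on 1 side was given 3 UMIs there and its ratio is then a lower bound.

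Among the genes highest with Hoxb13 were 3 enzymes that build sugar chains. B3gnt7, which extends sugar chains with N-acetylglucosamine, had 324 UMIs in members with Hoxb13 and 1 UMI in those without in the THC library (log2 7.15), and 345 UMIs and 0 UMIs in the vehicle library (at least 5.38). It was found in 35 of 42 and 37 of 43 members with Hoxb13, and in 1 of 18 and 0 of 15 members without. B3galt5, a galactosyltransferase, had 84 UMIs with Hoxb13 and 4 without in the THC library, and 73 and 0 in the vehicle library (log2 3.20, and at least 3.14). St3gal6, a sialyltransferase, had 101 UMIs with Hoxb13 and 3 without in the THC library, and 107 and 4 in the vehicle library (log2 3.88 and 3.28). All 3 thus had at most 4 UMIs in the members without Hoxb13 of a library.

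Adh1, an alcohol dehydrogenase whose upstream sequence is printed above, had 660 UMIs with Hoxb13 and 19 without in the THC library, and 624 and 15 in the vehicle library (log2 3.93 and 3.92). Its median per cell was 581.7 CPM with Hoxb13 and 0 CPM without in the THC library, and 803.6 and 0 CPM in the vehicle library, with overlapping ranges. The ion pumps Atp12a, a proton-potassium ATPase of the colon, and Atp2c2, a calcium pump of the secretory pathway, had 64 and 57 UMIs in THC members with Hoxb13 and 66 and 80 in vehicle members with Hoxb13, and 0 UMIs in members without. Atp12a was found in 12 of 42 THC members and 12 of 43 vehicle members with Hoxb13, and Atp2c2 in 22 and 21. Agr2, a protein disulfide isomerase of secretory cells, was higher by 2.65 and 2.99 on the log2 scale in the THC and vehicle libraries. Lsr, a protein of the junctions where 3 cells meet, was higher by 3.24 and 2.97.

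Neutrophil-attracting chemokines lay on the same side. Cxcl2 had 65 UMIs with Hoxb13 and 1 without in the THC library, and 87 and 1 in the vehicle library, and Cxcl1 had 76 and 4 in the THC library and 85 and 0 in the vehicle library. Of the 42 THC members and 43 vehicle members with Hoxb13, Cxcl2 was found in 13 and 14 and Cxcl1 in 18 and 24. Ccl20, which attracts lymphocytes and dendritic cells, had 78 and 3 UMIs in the THC library and 123 and 1 in the vehicle library, but 1 member held 75.3% of all its UMIs in THC members and 1 member 87.9% in vehicle members. Of 9 measured cytokine, chemokine and endothelin genes, these 3 passed 2-fold upward in both libraries and 0 passed downward. Chga, Chgb, Tph1 and Pcsk1n also ranked among the highest, and they came from the enteroendocrine-marked members above, which held 3 and 7 Hoxb13 UMIs in the THC library and 5 in the vehicle library.

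Other Hox genes were at low counts, and not all ran the same way. Hoxd13 had 13 UMIs with Hoxb13 and 0 without in the THC library, and 28 and 0 in the vehicle library (log2 at least 0.92 and 1.76). Hoxa13 had 9 and 4 in the THC library, and 18 and 1 in the vehicle library (log2 -0.02 and 2.71). Hoxa9 had 23 and 5 in the THC library, and 19 and 9 in the vehicle library (log2 1.01 and -0.38). Hoxd13 was thus higher with Hoxb13 in both libraries, and Hoxa13 and Hoxa9 in 1 library each. Hoxa7, Hoxa10 and Hoxb9 were higher with Hoxb13 in both, with intervals that included 0. Their log2 ratios were 0.76, 1.39 and 0.91 in the THC library and 0.54, 1.04 and 1.12 in the vehicle library. Hoxd11 had 7 UMIs with and 0 without in the THC library, and 16 and 0 in the vehicle library. Hoxb6, of a more anterior position, had 0 UMIs with Hoxb13 and 10 without in the THC library, and 4 and 15 in the vehicle library. Hoxb7 (log2 -2.19 in the THC library, at most -1.88 in the vehicle library) and Hoxb8 (-1.19 and -1.88) were also lower with Hoxb13. Both rested on at most 4 UMIs on each side. Of the 22 genes of the Hox list, 0 reached 50 UMIs in the members of each library, and these genes were named after their values were seen. The label distal thus has no Hoxb13 UMI behind it in 18 THC members and 15 vehicle members, and those cells are called here by the lack of Hoxb13.

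Highest in members without Hoxb13 was Car1, and 5 of 8 measured absorptive colonocyte markers were at least 2-fold higher there by summed counts in both libraries. Car1, a carbonic anhydrase, had 221 UMIs with Hoxb13 and 4933 without in the THC library, and 259 and 6008 in the vehicle library (log2 -5.67 and -6.00). Its median per cell was 0 CPM with Hoxb13 and 3057 CPM without in the THC library, and 45.7 and 10580 CPM in the vehicle library. The ranges overlapped, since 4 THC members and 2 vehicle members lacked both genes and others held both. Car1 was found in 18 of 42 THC members and 22 of 43 vehicle members with Hoxb13, and in 4.96% and 12.4% of fibroblast-side cells, which should lack it. Those fibroblast-side cells were chosen to lack Epcam, Krt8 and Cldn7 UMIs. In THC barcodes of 1 to 100 UMIs Car1 stood at 4226 CPM, beside 4888 CPM in THC members. The part of free RNA in the Car1 counts was not tested. Among members of 10000 UMIs or more the log2 ratios of Car1 were -6.30 and -6.86.

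**Figure D2:**
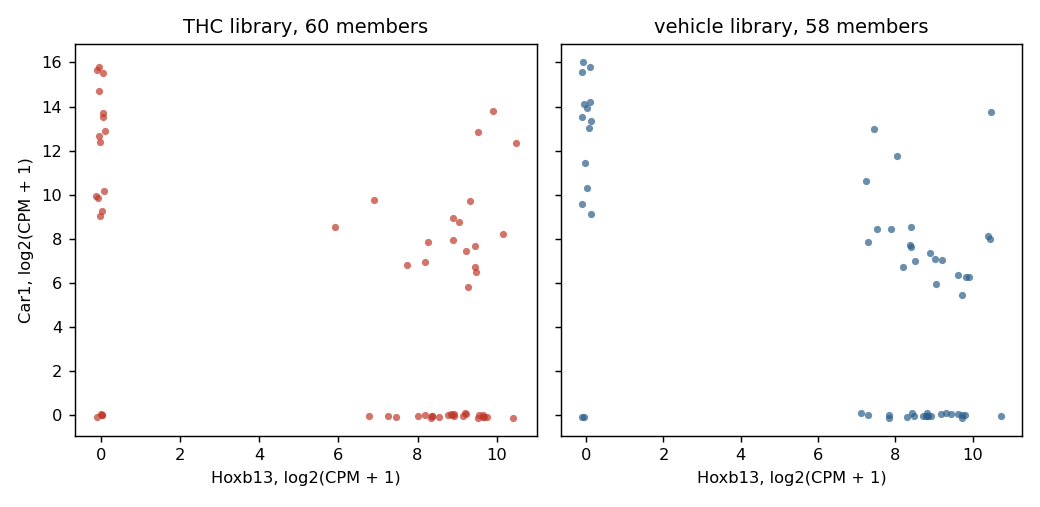
Each point is a member, with Hoxb13 on the horizontal axis and Car1 on the vertical axis, both as log2(CPM + 1) with small random offsets, in the THC library (left) and the vehicle library (right). Members high in Car1 gather at 0 Hoxb13, while 24 of 42 THC members and 21 of 43 vehicle members with Hoxb13 have no Car1.

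Cyp2c55, a cytochrome P450, had 69 UMIs with Hoxb13 and 885 without in the THC library, and 76 and 1292 in the vehicle library (log2 -4.87 and -5.55). Fabp2, the intestinal fatty acid binding protein, had 137 and 678 UMIs in the THC library, and 112 and 593 in the vehicle library (log2 -3.50 and -3.87). Both were found in most members without Hoxb13, Cyp2c55 in 14 of 18 THC cells and 13 of 15 vehicle cells.

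The carboxylesterases Ces2c and Ces2e, which cleave esters of drugs and lipids, were lower with Hoxb13 by log2 -3.17 and -2.64 in the THC library and -3.65 and -2.63 in the vehicle library. Cdx2, a homeobox factor of intestinal identity, was lower by -1.78 and -2.33. Of 15 measured xenobiotic metabolism genes, 4 passed 2-fold downward in both libraries (Cyp2c55, Cyp3a13, Gstp1 and Mgst3) and 0 upward. Of 23 measured surface colonocyte genes, 10 passed downward, among them Krt20, Guca2a, Lypd8 and Emp1, and 2 passed upward, Muc3 and Saa1. The absorptive colonocyte markers past the fold were Car1, Aqp8, Krt20, Guca2a and Lypd8, with 0 upward. Of members without Hoxb13, 18 in the THC library and 15 in the vehicle library, Aqp8 was found in 3 and 4 and Krt20 in 8 and 5. In members with Hoxb13 they were found in 5 and 1 and in 8 and 7. An enteroendocrine-marked member held 22 of the 94 Krt20 UMIs of THC members with Hoxb13, and another 41 of the 56 of vehicle members. Of all member UMIs, 1 member held 63.0% and 57.9% for Aqp8 and 43.4% and 41.4% for Krt20. Of 20 measured fatty acid oxidation and ketogenesis genes 3 passed downward and 0 upward. The sterol and fatty acid synthesis list had 1 of 18 measured genes past the fold, Acly, upward, and the respiratory chain list 0 of 28. Of 3 measured crypt genes of the rule, 1 passed upward, Kcne3, with list medians of 0.91 and 2.30 in the THC and vehicle libraries. Of 5 measured crypt, stem and Wnt target genes, 2 passed upward, Sox9 and Lrig1, and 1 downward, Prom1.

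Lypd8, a surface protein that keeps bacteria off the epithelium, shows how a sum can rest on a few cells. It had 1993 UMIs with Hoxb13 and 2942 without in the THC library, and 1361 and 2093 in the vehicle library, yet its median per cell was 1806 CPM with and 1982 CPM without in the THC library, and 1645 and 1618 CPM in the vehicle library. The medians of Lypd8 were thus close on both sides. Guca2a, the gut hormone guanylin, differed in the medians as well, at 116.7 CPM with and 488.0 without in the THC library, and 80.1 and 581.7 in the vehicle library.

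**Figure D3:**
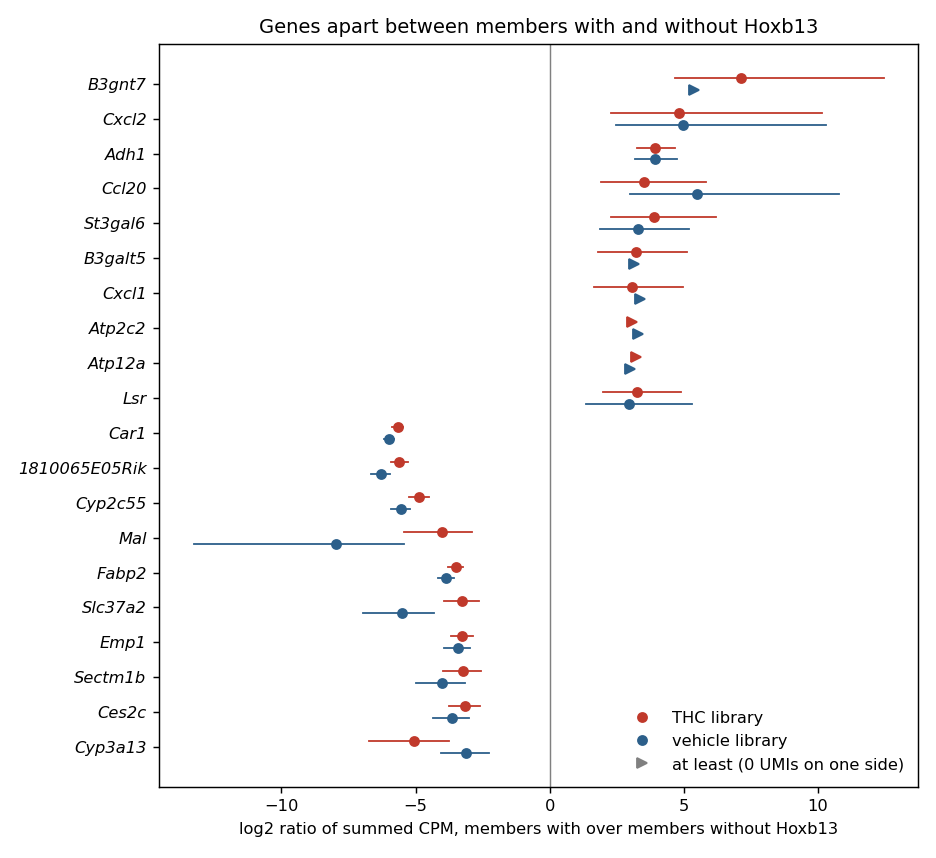
The horizontal axis is the log2 ratio of summed CPM in members with Hoxb13 over members without, for 10 of the 15 highest genes (Tgm3, a gene of the rule, and 4 enteroendocrine genes are left out) and the 10 lowest, THC above vehicle; lines are 95% counting intervals and triangles lower bounds where 1 side had 0 UMIs. Car1 lies at -5.67 and -6.00, Adh1 at 3.93 and 3.92.

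Set against the crypt-side cells of their own library, the members were higher in 16 of 26 measured surface colonocyte genes and lower in 9 of 19 measured cell cycle genes. The rule used 10 genes of the same cells, some of position along the colon and some of the crypt, so position and maturity cannot be told apart here and the values are a description. Of 4760 genes with at least 50 UMIs per library, 223 were at least 2-fold higher in members in both libraries (4.68%) and 122 at least 2-fold lower in both (2.56%). Among them were the 6 distal genes of the rule, all higher, and the 3 measured crypt genes of the rule, all lower, which the rule favoured.

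Sprr2a3, a small proline-rich protein of barrier epithelia, had 274.1 CPM in members and 2.28 CPM in crypt-side cells of the THC library, and 157.7 and 4.78 CPM in the vehicle library. Muc3, a membrane mucin of the brush border, had 1787 and 213.5 CPM in the THC library, and 1809 and 207.2 CPM in the vehicle library, in 91.7% of THC members and 96.6% of vehicle members. Slc13a2, a citrate and succinate transporter, had 99.6 and 2.28 CPM in the THC library, and 70.8 and 4.78 CPM in the vehicle library. Anxa3, a membrane-binding annexin, had 122.3 and 4.57 CPM in the THC library, and 125.5 and 13.6 CPM in the vehicle library. The other genes of largest ratio in both libraries were Atp12a, Zg16, Thbs4, B3gnt7, Tppp3, B3galt5, Tnip3, Slc6a8, Gsn, Eno3 and Ggh, with ratios of 2.79 to 6.47 on the log2 scale, that of Atp12a in the THC library being a lower bound. The smaller of both libraries' ratios was below 2-fold for Sprr2a3 without Sycn in the rule (0.84) and for Zg16, a lectin of mucus, at a Muc2 limit of 0.1% (0.98). Zg16 was found in 25.0% of THC members and 31.0% of vehicle members, with 43.3% and 47.2% of its UMIs in 1 member.

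Some of these held on both sides of the Hoxb13 division and some did not. Of the 15 highest genes, 7 were at least 2-fold above crypt-side cells in members with and without Hoxb13 in both libraries, and they were Sprr2a3, Slc13a2, Anxa3, Muc3, Slc6a8, Gsn and Eno3. B3gnt7 stood 4.01 and 4.02 above the crypt side on the log2 scale in members with Hoxb13 of the THC and vehicle libraries, and at -3.14 and -1.36 in members without. Of 26 surface colonocyte genes, 16 were at least 2-fold above crypt-side cells when members were not divided. In members with and without Hoxb13 alike, 4 were so in both libraries: Muc3, Mxd1, Gsdmc4 and Il18. Krt20 stood at 0.72 and 0.05 with Hoxb13 in the THC and vehicle libraries, and at 3.06 and 3.35 without. The values with Hoxb13 rest in part on enteroendocrine-marked members, 1 with 22 of 94 UMIs in the THC library and 1 with 41 of 56 in the vehicle library. Cyp2c55 stood at -0.51 and -2.35 with Hoxb13, and at 4.37 and 3.20 without. Among all listed genes, those that passed 2-fold upward in all 4 comparisons included S100a6, S100a14, Lgals3, Serpinb5, Cldn4, Mxd1, Il18, Gsdmc4, Slc20a1 and Slc26a3. Of the 15 lowest genes in members, 11 were at least 2-fold lower in all 4 comparisons, and the 15 included Fabp6, Reg3g, Cd44, Hoxb8, Reg3b, Car8, Osr2, Sox4, C2cd4b, Rgcc, Aqp1, Ifitm3, Hoxb6 and Acot1.

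Cd44, an adhesion receptor and Wnt target of crypt cells, had 11.4 CPM in members and 164.4 CPM in crypt-side cells of the THC library, and 8.58 and 169.8 CPM in the vehicle library. Sox4, a factor of progenitor cells, had 44.6 and 219.2 CPM in the THC library, and 46.1 and 267.0 CPM in the vehicle library. Fabp6, the ileal bile acid binding protein, had 3.79 and 1278 CPM in the THC library, and 3.22 and 106.8 CPM in the vehicle library, but it was found in 9.30% and 7.5% of crypt-side cells, and at a minimum of 2500 UMIs per cell its smaller ratio was -0.32. The antibacterial lectins Reg3g and Reg3b were likewise carried by few crypt-side cells, 23.3% and 16.3% of them in the THC library and 15% and 7.5% in the vehicle library; at 2500 UMIs the smaller ratio of Reg3b was -0.95.

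By list, the surface colonocyte genes had 0 that were 2-fold lower in both libraries, with medians of 1.72 and 1.28 in the THC and vehicle libraries against -0.08 and -0.05 for all measured genes. Klf4, which drives cells out of the cycle, stood at 2.22 and 1.88. Of 23 measured sterol and fatty acid synthesis genes, 8 were higher and 0 lower, among them Scd2, a desaturase, by 1.72 and 1.64. Of 21 genes of the keratin, desmosome and transglutaminase list, 9 were higher and 0 lower, S100a6 by 2.16 and 1.70 and Anxa1 by 1.83 and 1.94. Of 12 NF-kappaB feedback genes 4 were higher and 0 lower, Tnfaip3, an inhibitor of that pathway, by 1.17 and 1.31.

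Of 19 measured cell cycle genes, 9 were 2-fold lower in members in both libraries and 0 higher, and of 12 measured crypt, stem and Wnt target genes 6 were lower and 0 higher. Slc12a2, the chloride-loading cotransporter of secretory crypt cells, stood at -1.84 and -1.84. Of 14 tight junction genes 3 were higher, Cldn4, Cldn23 and Tjp1, and 2 lower, Cldn2 and Cldn15, the pore-forming claudins of crypt and small intestine. Cldn2 stood at -2.22 and -1.04 and Cldn4, a sealing claudin, at 1.75 and 1.08. The respiratory chain, with 29 measured genes, and fatty acid oxidation, with 22, had 0 genes past the fold in both libraries.

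**Figure D4:**
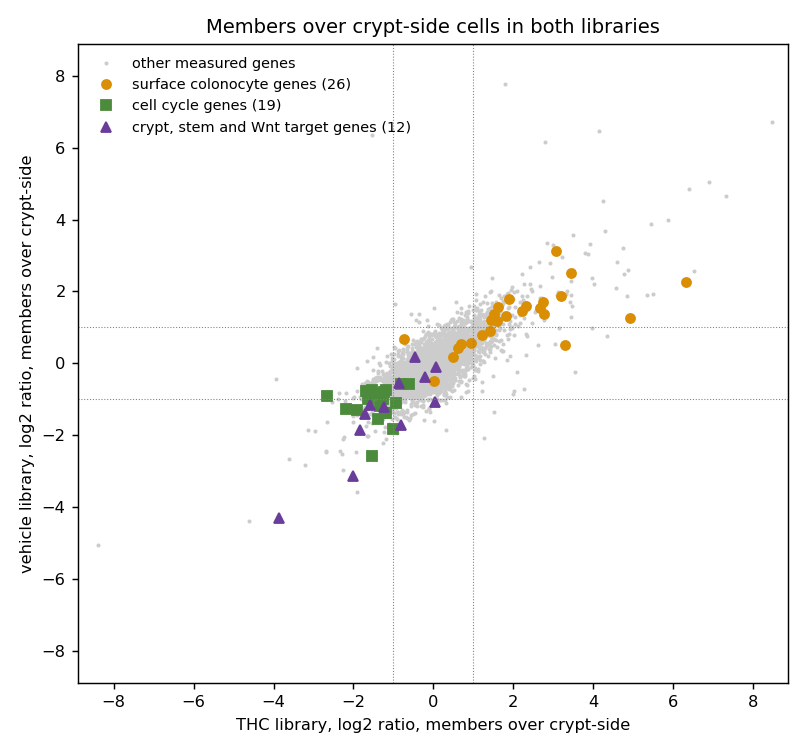
Each point is a measured gene, with the log2 ratio of members over crypt-side cells in the THC library on the horizontal axis and in the vehicle library on the vertical axis; dotted lines mark 2-fold. Of the surface colonocyte genes 16 of 26 lie past 2-fold in the upper right, and of the cell cycle genes 9 of 19 in the lower left.

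Few genes stood 2-fold apart between the members of the 2 libraries. Of 4866 genes with at least 50 UMIs over the members of both, 49 were at least 2-fold higher in the THC library (1.01%) and 24 at least 2-fold lower (0.493%), and 80% of genes lay between -0.37 and 0.41 on the log2 scale with a median of 0.02. Single cells weighed heavily: in 20 of the 49 higher genes and 6 of the 24 lower genes 1 member held over 50% of the UMIs of the library where the gene was higher. Without the 5 members of mixed markers, 31 of the 49 and 22 of the 24 stayed past 2-fold. Tagln, Acta2, Actg2, Des and Myh11, contractile genes of smooth muscle, were among the 49, with 97.2% to 99.1% of their THC UMIs in 1 member.

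Among the named genes, Saa1, an acute-phase protein of epithelia under bacterial contact, had 288 UMIs in the THC library and 57 in the vehicle library, or 2.16 on the log2 scale (95% counting interval 1.75 to 2.60). It was found in 10 members of each library, 16.7% and 17.2%, with 33.0% of the THC UMIs and 71.9% of the vehicle UMIs in 1 member. The ratio was 3.41 without the richest member of each library and 0.59 at a mitochondrial limit of 10%. Fxyd4, a regulator of the sodium pump in the colon, had 84 and 21 UMIs (log2 1.82, 1.12 to 2.59), in 6 THC members and 7 vehicle members. One vehicle member held 61.9% of the vehicle UMIs, and the ratio of Fxyd4 was 2.63 without the richest member of each library and -1.01 at a mitochondrial limit of 10%. Arl14, a small GTPase, had 84 and 28 UMIs (1.41, 0.77 to 2.08), in 21 THC members and 15 vehicle members. Prss30, a serine protease of the intestinal surface that cleaves the epithelial sodium channel, had 109 and 39 UMIs (1.31, 0.77 to 1.87), in 15 and 7 members. For none of these 4 was the gene present in more than 35.0% of members.

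Aqp4, a gene of the rule, was also among the 49. It had 286 UMIs in 63.3% of THC members (49.9 to 75.4) and 119 UMIs in 46.6% of vehicle members (33.3 to 60.1), with a highest member of 38 and 20 UMIs, and the log2 ratio was 1.09 (0.77 to 1.41). In crypt-side cells the log2 ratio of Aqp4 was -0.29 (-1.08 to 0.47). The rule limits Aqp4 counts in those cells, so this value cannot be read as a contrast with members. Tgm3 stood at 0.68 (0.44 to 0.91), Krt36 at -0.72 (-0.99 to -0.45), and Hoxb13, Sycn and Slc6a14 between -0.13 and 0.07. The counts of single members overlapped between the libraries for all 6 genes.

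The remaining named genes of the THC side were Csrp1, Tinagl1, 8430408G22Rik, Adm, Cyp2d34, Cd177, Id3 and Ube2c, with log2 ratios of 0.85 to 1.37. Adm, the vasodilator peptide adrenomedullin, had 106 UMIs in the THC library and 42 in the vehicle library (1.16, 0.63 to 1.71). Cd177, a surface protein shared with neutrophils, had 57 and 20 UMIs (1.33, 0.58 to 2.15). Id3, an inhibitor of differentiation factors that answers to BMP signals, had 324 and 159 UMIs (0.85, 0.57 to 1.13). Without the members of mixed markers, Csrp1, a protein of actin fibres, stood at 0.72, 8430408G22Rik at 0.59, Id3 at 0.69 and Tinagl1 just under 1.

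On the lower side, S100g, the calcium-binding protein calbindin-D9k, had 4 UMIs in THC members and 109 in vehicle members (log2 -4.95, -6.85 to -3.55), in 4 and 10 cells. Ramp1, a partner of the CGRP receptor, had 11 and 71 UMIs (-2.87, -3.93 to -1.94). Pfkfb3, a regulator of glycolysis, had 9 and 44 UMIs (-2.47, -3.69 to -1.41), in 4 and 14 cells. Gm26917, a long RNA found in most members, had 399 and 1160 UMIs (-1.72, -1.89 to -1.55). It was also lower in crypt-side cells (-1.06) and goblet-side cells (-0.47). In THC barcodes of 1 to 100 UMIs Gm26917 stood at 2262 CPM, beside 378.4 CPM in THC members, and the part of free RNA in its counts was not tested. The inducible heat shock gene Hspa1a had 141 and 271 UMIs (-1.12, -1.43 to -0.82), and it stood at -0.72 in crypt-side and -0.57 in goblet-side cells. The other named genes, Sval1, Spink4, Gal3st2c, Cyp2c55, Edn2, Hspa1b and Nupr1, lay between -1.25 and -0.68. In crypt-side cells Ramp1 stood at -4.21 (2 and 53 UMIs), S100g at -0.85, Sval1 at most -3.75, Spink4 at -3.67, Cyp2c55 at -2.09 and Edn2 at -0.78. Gal3st2c (-0.45) and Hspa1b (-0.41) were also lower there, and Nupr1 (0.17) and Pfkfb3 (1.10, on 3 and 2 UMIs) were not. Within members, Cyp2c55 was higher in the THC library at a mitochondrial limit of 10% (0.82) and without Slc6a14 in the rule (1.03). Sval1 was higher there by the mean of per-cell CPM (0.87).

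**Figure D5:**
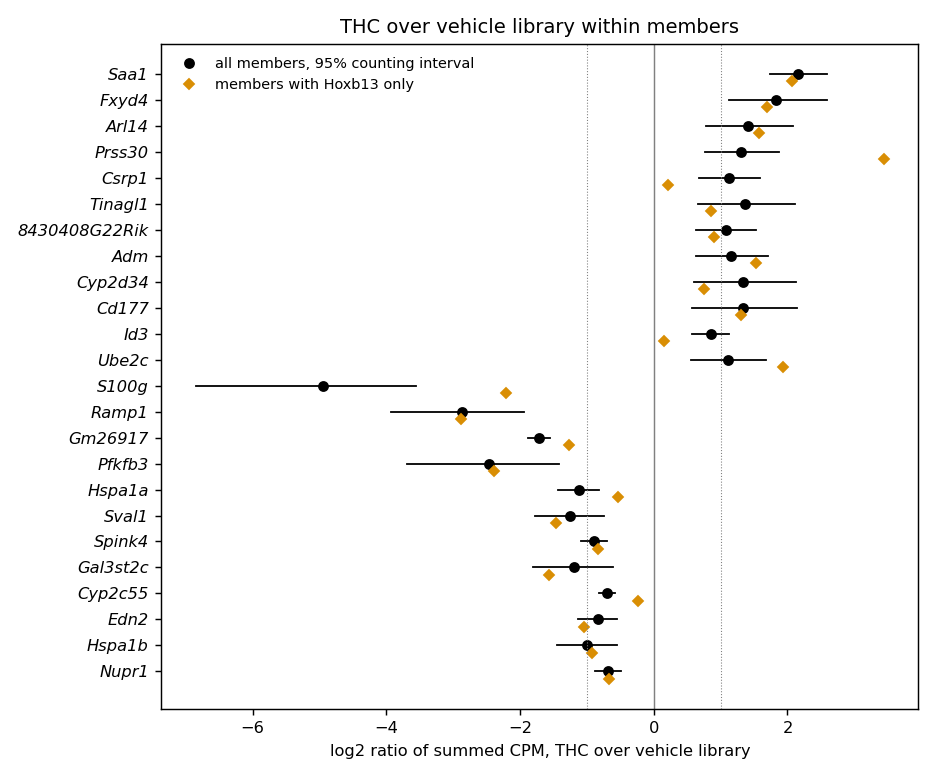
The horizontal axis is the log2 ratio of summed CPM, THC over vehicle library, for the 12 highest and 12 lowest named genes; black points with lines are all members with 95% counting intervals, and diamonds the members with Hoxb13 only. Saa1 lies at 2.16 in all members and 2.07 in those with Hoxb13, S100g at -4.95 and -2.22.

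Restricted to members with Hoxb13, 42 in the THC library and 43 in the vehicle library, some of these ratios kept their size and others did not. Saa1 stood at 2.07, Adm at 1.53, Fxyd4 at 1.70, Ramp1 at -2.89, Pfkfb3 at -2.39 and Aqp4 at 0.91. Prss30 stood at 3.44, with 35 UMIs in the THC library and 3 in the vehicle library. Csrp1 (0.21), Id3 (0.16) and Cyp2c55 (-0.24) lay near 0, and Hspa1a at -0.53.

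Over the gene lists, 13 of 346 measured genes, rule genes and cell type markers left out, were past 2-fold between the libraries, beside 73 of all 4866 (1.5%). Besides those named elsewhere these were the water channel Aqp8 (-1.31), the lectin Lgals9 (1.11) and the cytochrome Cyp4b1 (2.24). Aqp8 was found in 8 THC members and 5 vehicle members, with 63.0% and 57.9% of its UMIs in 1 member. Cyp4b1 was found in 7 and 4, with 75% of the THC UMIs in 1 member. Without the richest member of each library Aqp8 stood at -1.49 and Cyp4b1 at 1.41. The cytosolic heat shock list had a median of -0.24, with 11 of 15 measured genes lower and 4 higher in the THC library, 1 past 2-fold downward (Hspa1a) and 1 upward (Hspb1, which stood at -0.09 without the members of mixed markers). Hsp90aa1, a stress-inducible chaperone, had 566 and 732 UMIs (log2 -0.55, -0.71 to -0.39). The NF-kappaB feedback list had 11 of 12 genes lower and a median of -0.18, with 0 past 2-fold, and Nfkbiz at -0.70 the lowest. The sterol and fatty acid synthesis list had 17 of 25 higher and a median of 0.22, with 0 past 2-fold, and Cyp51 at 0.60 the highest. The surface colonocyte list had 18 of 27 higher and a median of 0.14, with 2 past 2-fold, Saa1 and Prss30. The median of all genes was 0.02.

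Interferon-stimulated genes were at low counts in all but a few members. Isg15 had 60 UMIs in 7 THC members and 0 UMIs in vehicle members (log2 at least 4.14), but 80.0% of them lay in 1 cell, and Ifit1 had 48 and 4 UMIs with 72.9% of the THC UMIs in 1 cell. The cannabinoid receptors Cnr1 and Cnr2 and the related receptors Gpr55, Gpr119 and Trpv1 had 0 UMIs in members of both libraries, which at this depth does not show absence. Of the enzymes that break down endocannabinoids, Faah had 22 UMIs in THC members and 16 in vehicle members, and Mgll 19 and 25. Mgll followed the Hoxb13 division, with 3 UMIs with and 16 without in the THC library, and 2 and 23 in the vehicle library.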

How the data were processed

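Droplet 5′ gene expression libraries of colon cells, 1 after THC and 1 after vehicle, were read from the deposited UMI count matrices (raw counts per gene and barcode, 31053 genes), made with Cell Ranger 3.0.2 per the file headers. Seurat and bcl2fastq stand in the submitters' processing notes with no version. No source used here states the genome build. The THC matrix holds all 737280 possible barcodes, 106628 with a UMI, and the vehicle matrix 973 barcodes, the shallowest of 502 UMIs.

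Barcodes were kept at 1000 UMIs, 200 genes and under 15% mitochondrial UMIs. Epithelial cells had 5 UMIs of Epcam, Krt8 and Cldn7 and at most 1 of Ptprc, and goblet-side cells had 0.3% or more Muc2. Members needed a distal sum of 2 that exceeded the crypt sum. The libraries shared 0 kept barcodes. Scanpy 1.11.5 (Scrublet) called 2 doublets in the THC library, 1 of them a member, and 3 in the vehicle library, 0 of them members. Doublets were kept.

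Counts were summed over cells per library and scaled to CPM. Intervals are exact (binomial for shares, conditional Poisson for ratios) at 95%. Only the ratio intervals were run on simulated data, which were Poisson counts, the model they assume. That run cannot test UMIs gathered in single cells. UMIs of 1 library are not replicates. The members, lists and rules were chosen with earlier results of these data known. Named genes were the 12 highest and 12 lowest between libraries by the interval bound nearest 0, found in 10% of members, with no member above 50% of UMIs, both only in the library where the gene was higher, and the 15 highest and lowest against the crypt side. The division by Hoxb13 was added after seeing the data, its named genes being the 15 highest and lowest in both libraries. edgeR 4.0.16 gave TMM factors as an alternative scaling. Some genes that meet these rules are not reported here.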

Additional observations from a re-analysis of the deposited data

Results flagged for a closer look

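Among genes that reached 50 UMIs, THC and vehicle summed, in members and again in crypt-side cells, 2 had a THC over vehicle ratio that ran in opposite directions in members and crypt-side cells, past 2-fold each way; the difference was not tested, since each group is 1 library. Hspb1, a small heat shock protein, stood at 1.85 in members on the log2 scale and at -6.11 in crypt-side cells (45 and 11 UMIs in THC and vehicle members, 1 and 99 in crypt-side cells), with 62.2% of the THC member UMIs in 1 cell and 90.9% of the vehicle member UMIs in 1 cell. Without the members of mixed markers it stood at -0.09. Pclaf, a replication clamp-binding protein, stood at -2.42 in members and 1.08 in crypt-side cells (11 and 52 UMIs in members, 140 and 95 in crypt-side cells), with 65.4% of the vehicle member UMIs in 1 cell. Below that minimum on the crypt side, Saa1 (2.16 in members) had 0 and 16 UMIs and Prss30 (1.31 in members) had 3 and 22 UMIs in THC and vehicle crypt-side cells.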

How the results depend on the processing

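No paired analysis was possible because each group is 1 library. A mitochondrial limit of 10% left 34 vehicle members, 140 genes higher and 59 lower than in crypt-side cells, and 32 list genes past 2-fold between libraries, and it turned Fxyd4 to -1.01. Without Sycn in the rule, members were 38.5% of non-goblet epithelial cells in the THC library and 23.3% in the vehicle library, with 21 list genes past 2-fold; without Slc6a14 there were 25. Against 49 higher and 24 lower genes between libraries, a minimum of 20 UMIs per gene gave 214 and 151, a minimum of 1 UMI in each library 773 and 868, the mean of per-cell CPM 80 and 49 (20 list genes) and thinning each member to 1000 UMIs 558 and 743 (74 list genes), where a few UMIs per gene set the ratio. Thinning put Arl14 at -1.05, Tinagl1 at -0.049 and Sval1 at 2.41, and the per-cell mean put Sval1 at 0.87. Of alternatives added after seeing the data, leaving out members with 20 UMIs of other cell types gave 30 higher genes with at least 50 UMIs left (31 of the original 49 stayed past 2-fold, some with fewer UMIs), and members with Hoxb13 only gave 26. The causes of the other changes were not tested. TMM scaling moved ratios by -0.02.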
